A study of Caenorhabditis elegans with 2 samples.

Results

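The 37 genes described here encode the working parts of the neuromuscular synapse of Caenorhabditis elegans. They were listed by name for their known roles, with no peak value in the rule, though the list was drawn up with earlier results of these data known. All 37 were found among the 19973 nuclear protein-coding genes of the annotation, and they were sorted into 11 genes of the vesicle release machinery, 3 of vesicle endocytosis, 5 of G-protein signalling, 10 of acetylcholine signalling, 4 of GABA signalling and 4 ion channel genes. The question asked of them was where GEI-8, which is related to the corepressors NCoR and SMRT of vertebrates, was found on their promoters and gene bodies. GEI-8 was mapped by chromatin immunoprecipitation and sequencing (ChIP-seq) in strain OP589, whose genotype is unc-119(tm4063) with the integrated array wgIs589. That array carries gei-8 fused to TY1, EGFP and 3xFLAG, together with a wild-type unc-119 copy, and the labelled genotype names no change at the native gei-8 gene. Tagged protein was pulled down with an antibody against GFP from whole fourth-stage (L4) larvae of both sexes, 48 hours after synchronisation by starving newly hatched larvae. The 2 biological replicates form 1 group, and no untagged strain, mutant or other stage was analysed here.

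At a neuromuscular synapse, calcium enters the nerve ending through voltage-gated channels and makes synaptic vesicles fuse with the membrane through the SNARE proteins. Excitatory motor neurons of the worm release acetylcholine and inhibitory ones release GABA, and body wall muscle carries receptors for both. A pair of opposing G-protein pathways, Gq and Go, raises and lowers the rate of release. Corepressors of the NCoR and SMRT kind do not bind DNA themselves but are brought to it by transcription factors, nuclear receptors among them.

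The files gave peaks and no read counts, so the depth of each library is unknown. Each replicate, and the pool of both, had a relaxed list of 30000 peaks, background peaks among them, and a further, shorter list was the deposited reproducible set. The reproducible peaks were the same as the strongest peaks of the pooled list by signal, the authors' own value per peak, down to the length of that set. Signal is compared between lists only by rank (1 is the strongest peak). All lists shared 1 control alignment and the pool contains both replicates, so no list is independent of the others. In whole animals, a site bound strongly in a few neurons and a site bound weakly in many cells cannot be told apart. A promoter peak is one with its summit in the window from 1000 bp before to 200 bp after the annotated 5′ end, and a body peak is one with its summit inside the annotated gene. Peak widths were nearly fixed and are not used. The pooled relaxed list held 121 peaks in these windows of the 37 genes, of which 5 (4.13%) had a q-value below 0.05, against 6.95% of all 30000 peaks.

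Few of the synaptic genes lay at a strong GEI-8 peak, and those that did were egl-30, the gene of the Gq alpha subunit, and unc-25, the gene of glutamic acid decarboxylase that makes GABA. The vesicle SNARE gene snb-1 came next, outside the reproducible list. The DNA under the summits at unc-25 and snb-1 is given to show what lay at each site. The sequences were read from the RefSeq genome in build ce11 (WBcel235) along the strand of the gene, with untranslated bases left out, and capitals mark matches of TAATCC or its reverse complement. The first lies at chrIII:12942445-12942650 on the plus strand, directly upstream of unc-25. The second lies at chrV:6656162-6656461 on the minus strand and covers the first intron of snb-1 with parts of its exons.
unc-25: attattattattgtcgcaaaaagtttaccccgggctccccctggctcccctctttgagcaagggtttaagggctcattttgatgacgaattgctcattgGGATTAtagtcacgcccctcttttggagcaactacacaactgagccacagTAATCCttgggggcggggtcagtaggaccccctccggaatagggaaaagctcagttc
snb-1: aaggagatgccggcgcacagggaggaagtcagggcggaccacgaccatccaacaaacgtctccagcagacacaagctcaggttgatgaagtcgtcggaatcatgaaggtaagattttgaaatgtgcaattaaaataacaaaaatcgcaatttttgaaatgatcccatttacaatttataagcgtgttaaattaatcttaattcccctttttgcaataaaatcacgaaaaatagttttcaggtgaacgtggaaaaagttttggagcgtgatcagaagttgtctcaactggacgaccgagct

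TAATCC is the core of sites for Pitx-type homeodomain factors, and UNC-30, the factor of that type in worm GABA motor neurons, is known to activate unc-25 and unc-47. In the unc-25 sequence it occurred at bases 100 to 105 and 150 to 155, counted from the 5′ end of the printed run, and the pooled summit was at base 151. The summits of the replicates lay 140 bp and 42 bp upstream of the 5′ end, so the position is known only to within that span, which holds both matches (107 to 102 bp and 57 to 52 bp upstream). TAATCC, searched on both strands, was found in the 300 bp upstream of 8 of the 37 genes (21.6%), against 9.41% of all protein-coding genes. The 8 were unc-25 and unc-47 of the GABA genes, unc-13, snb-1, ric-4, unc-10 and rab-3 of the release machinery, and the receptor gene unc-29. Only unc-25 held a pair of matches, and only unc-25 of these 8 had a reproducible promoter peak. The 300 bp around member summits held TAATCC at 18 of 121 peaks (14.9%), against 10% of all relaxed pooled peaks and 5.79% of the reproducible ones. No match to TCCCNNGGGA, the site of the cholinergic motor neuron factor UNC-3, lay in the same 300 bp upstream of any of the 37 genes, and 0.15% of all genes had one. GAGAGA, a repeat common in worm promoters, was upstream of 14 of the 37 genes (37.8%), against 21.6% of all genes. At the peaks themselves it was found at 23.1% of member sites, 22.8% of all relaxed pooled peaks and 44.3% of the reproducible list. These matches describe the letters of the windows and are not evidence of a factor, and the motifs can overlap one another.

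In the reproducible list, 2 of the 37 genes (5.41%) had a promoter peak, against 2.05% of the 19936 other protein-coding genes. When the other genes were weighted to the same gene lengths, in 4 classes with limits at 3000, 6000 and 12000 bp, the share was 2.53%, or 0.937 genes of 37. With the 5′ end of any annotated transcript in place of the outermost end, the count was again 2 of 37, against 2.36% of other genes. For gene bodies the count was 1 of 37 (2.7%), egl-30, against 1.97% of other genes and 5.55% of other genes weighted to the same lengths. Below, the top peaks of a replicate are as many of its strongest peaks as the reproducible list holds. With a body summit required among the top peaks of both replicates, the count was again 1 of 37, egl-30, against 1.22% of other genes. Counts of 1 and 2 genes are too small to separate from these background shares.

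**Figure D1:**
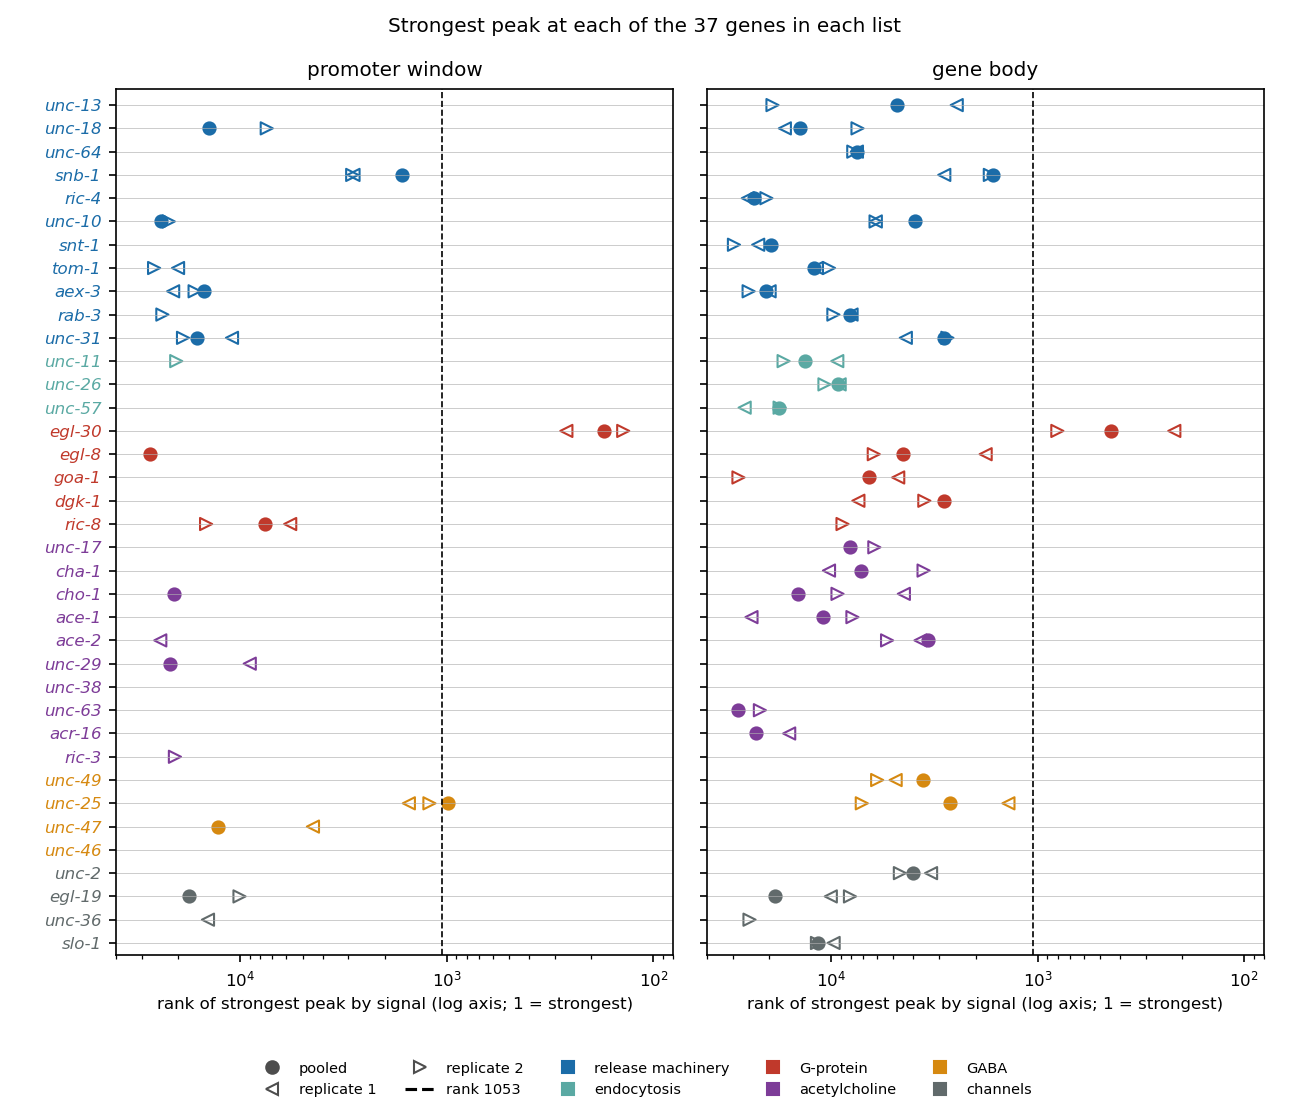
The rank of the strongest peak at each of the 37 genes in the pooled list (circles) and in replicates 1 and 2 (triangles), for the promoter window (left) and the gene body (right), on log axes with stronger peaks to the right and colours for the 6 role groups. The dashed line marks the rank of the last reproducible peak, and the pooled circles past it belong to egl-30 in both panels and to unc-25 in the promoter panel. A gene with no symbol had no summit in that window.

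Among the G-protein genes, egl-30 had the strongest peaks of the 37. It lies on chromosome I at 1835661 to 1841965 on the plus strand and has 3 annotated transcripts with 3 separate 5′ ends. Its promoter peak (1835327 to 1835776) had its summit 109 bp upstream of the outermost 5′ end and ranked 174 in the pool, 264 in replicate 1 and 140 in replicate 2, with signals of 235, 114 and 123. The replicate summits lay 7 bp and 69 bp upstream of the same end. This site was therefore strong in both replicates. The gene C53H9.4 is on the same strand, with its 5′ end 119 bp downstream of that of egl-30 and inside the first exon of egl-30. It has the same summit in its own promoter window, so the peak cannot be given to egl-30 alone. A further pooled peak at 91 bp downstream ranked 1904 and overlaps the same replicate peaks.

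The body peak of egl-30 (1836754 to 1837203) had its pooled summit 1318 bp into the gene, in 5′ untranslated sequence and 328 bp past the 5′ end of the second transcript. It ranked 444 in the pool and 218 in replicate 1, with its summit at 1312 bp. In replicate 2 it was matched by a pair of peaks with summits at 1060 bp and 1365 bp, ranked 803 and 1287. The strongest rank was thus reached in replicate 1. In replicate 2 the peak nearest the pooled summit, at 1365 bp, was outside the top peaks. The adjoining one at 1060 bp, which also overlaps the pooled peak, was among them. Of the other genes longer than 6000 and up to 12000 bp, 2.07% had a body peak as strong in the pool. Further along, a weak peak in a coding exon at 3195 bp ranked 6061 in the pool, 10786 in replicate 1 and 5796 in replicate 2.

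The other G-protein genes had weaker sites. The gene ric-8 encodes a chaperone and exchange factor of G alpha subunits. Its promoter held a pooled peak 228 bp upstream, ranked 7569, with the nearest replicate 1 summit ranked 6795. A further pooled peak 494 bp upstream ranked 8213, with the nearest replicate 1 summit ranked 5741. Both pooled peaks of ric-8 overlapped the same replicate 2 peak, ranked 14661. In egl-8, the phospholipase C beta gene that acts downstream of Gq, the promoter held only a pooled peak ranked 27361, with no summit there in either replicate. The gene body of egl-8 held 17 pooled summits over 22887 bp. The best ranked 4482 in an intron at 1040 bp, where the overlapping replicate peaks ranked 8533 and 6218. The best body peak of egl-8 in replicate 1 lay elsewhere, at 5338 bp, with rank 1787. The replicate 2 peak overlapping it ranked 19727. No list had a summit in the promoter window of goa-1, the Go alpha gene, or of dgk-1, which encodes the diacylglycerol kinase that counters Gq signalling. The best site of dgk-1 was in a coding exon, 4962 bp from the 5′ end, with ranks of 2844 in the pool, 7385 in replicate 1 and 3539 in replicate 2. A second site in a dgk-1 intron at 543 bp ranked 3689 in the pool, 9676 in replicate 1 and 4210 in replicate 2. In goa-1 the single pooled site, in an intron at 848 bp, ranked 6540 in the pool and 4737 in replicate 1 but only 28118 in replicate 2. Agreement between replicates was therefore closer at dgk-1 than at goa-1.

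**Figure D2:**
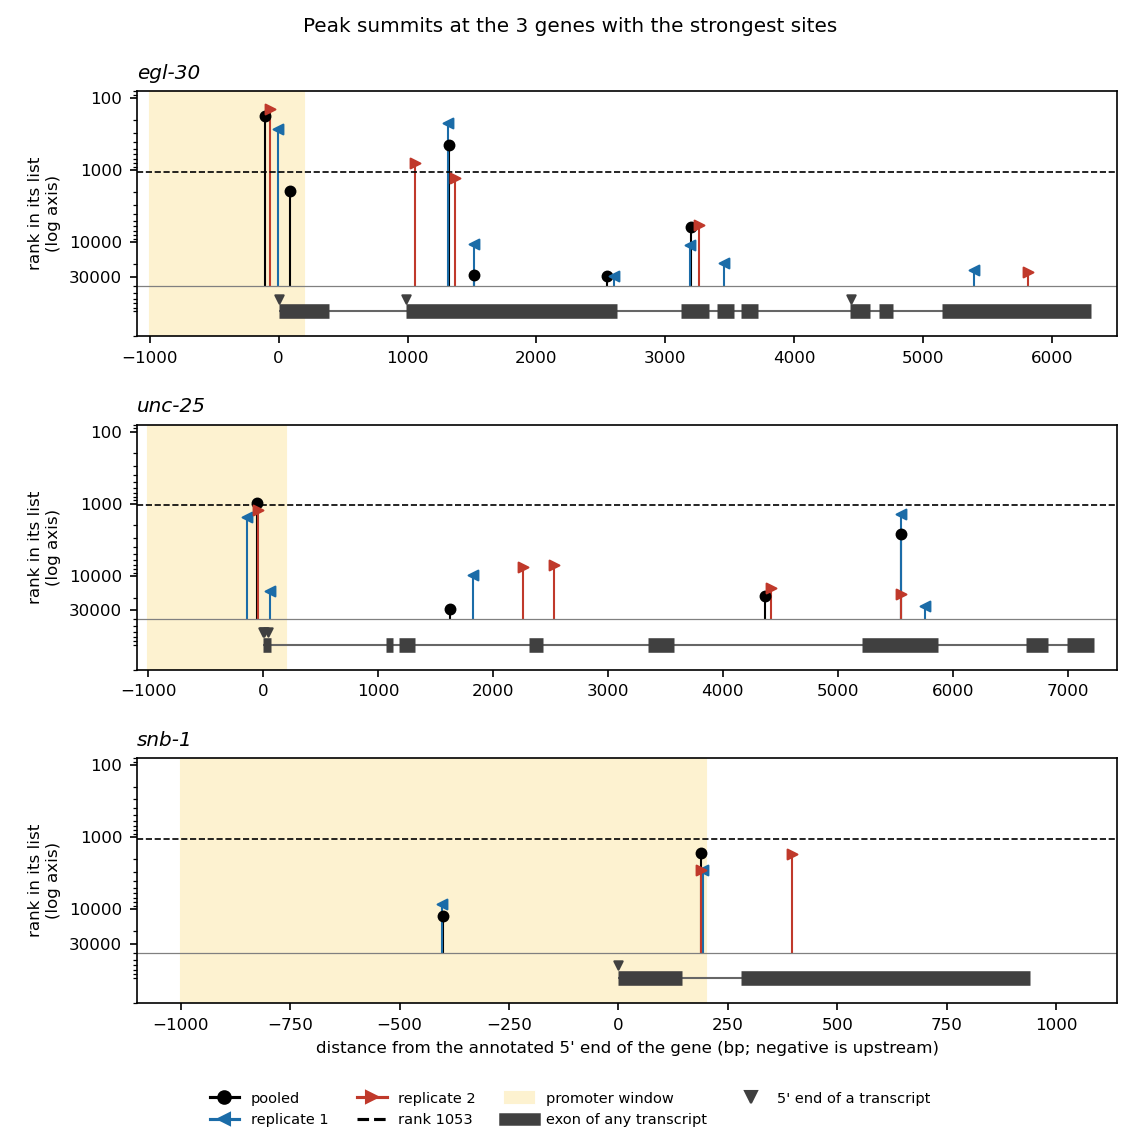
Peak summits along egl-30, unc-25 and snb-1, with distance in bp from the annotated 5′ end on the horizontal axis and rank in each list on a reversed log axis, for the pool (black), replicate 1 (blue) and replicate 2 (red). Grey boxes are exons of any transcript, grey triangles are transcript 5′ ends, the shaded band is the promoter window and the dashed line is the rank of the last reproducible peak. The strongest egl-30 summit at the 5′ end passes the line in all 3 lists, while a further pooled summit there (rank 1904) does not. The strongest unc-25 summit at the 5′ end passes it in the pool (rank 989) but not in replicate 1 (rank 1529) or replicate 2 (rank 1215).

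Of the GABA genes, unc-25 was the one with a reproducible promoter peak. The gene lies on chromosome III at 12942651 to 12949883 on the plus strand, and the peak spanned 12942370 to 12942819. Its summit was 56 bp upstream of the 5′ end and ranked 989 in the pool, 1529 in replicate 1 and 1215 in replicate 2, with signals of 127, 62.5 and 60.5. It was thus near the end of the reproducible list, and in neither replicate was it among the top peaks. No other protein-coding gene had this summit in its promoter window. Inside unc-25, a coding exon site at 5551 bp ranked 2660 in the pool and 1386 in replicate 1 but 17735 in replicate 2.

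The other GABA genes were the vesicular GABA transporter gene unc-47, the receptor gene unc-49 and unc-46, whose product helps to place the transporter on vesicles. A promoter peak of unc-47, 508 bp upstream, ranked 12818 in the pool and 4455 in replicate 1 and was not listed in replicate 2. The promoter window of unc-49 held no summit in any list, and its best body site, in an intron at 4040 bp, ranked 3574 in the pool, 4875 in replicate 1 and 5988 in replicate 2. This site lay 534 bp past the 5′ end of an internal transcript. For unc-46 no list had a summit in the promoter or the body. Of the 4 GABA genes, 1 thus had a reproducible promoter peak, that of the synthetic enzyme. Other genes weighted to their lengths had one in 2.22% of cases, or 0.0889 genes of 4. The count rests on 1 peak near the end of the reproducible list.

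In the release machinery, snb-1, which encodes synaptobrevin, had the best ranks. It is the shortest of the 37 genes at 940 bp (chromosome V, 6655562 to 6656501, minus strand), and its pooled summit lay 189 bp past the 5′ end, in the first intron and inside the promoter window. The peak (6656087 to 6656536) ranked 1654 in the pool with a q-value of 0.0239, and the corresponding summits ranked 2834 in replicate 1 and 2875 in replicate 2. Replicate 2 had another summit at 397 bp, in a coding exon, ranked 1705. The site was therefore present in both replicates but outside the reproducible list. It also lay in the promoter window of syx-18, on the same strand with its 5′ end 1052 bp away. Among the other genes of 3000 bp or shorter, 1.67% had a body peak as strong.

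Promoter peaks of the other release genes were weak. In unc-18, whose product binds syntaxin, a summit 4 bp past the 5′ end ranked 14237 in the pool, and the replicate 2 peak there ranked 7455 with none in the replicate 1 window. A reproducible peak lay outside the window, 1899 bp upstream of unc-18 (X, 7680772 to 7681221), and ranked 702 in the pool, 501 in replicate 1 and 1536 in replicate 2. That summit was in the promoter window of the neighbour stn-2 and 38 bp from the ncRNA gene F27D9.9. In aex-3, the gene of the exchange factor for RAB-3, a peak 923 bp upstream ranked 15060 in the pool, 21177 in replicate 1 and 16665 in replicate 2. Peaks of unc-31, the CAPS gene of dense core vesicle release, and of tom-1, the tomosyn gene that inhibits release, were also listed in both replicates. No promoter summit was listed for unc-13 (vesicle priming), unc-64 (syntaxin), ric-4 (SNAP-25) or snt-1 (synaptotagmin, the calcium sensor) in any list.

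Every release gene had a body summit in both replicates, though not always at the same place. In aex-3 the summits lay at 2602 and 1263 bp in replicate 1 and at 6405 bp in replicate 2. In unc-18 they lay at 1370 and 2578 bp in replicate 1 and at 89 bp in replicate 2. Apart from snb-1, the best pooled body ranks were 2855 in unc-31, 3939 in unc-10, the gene of the active zone protein RIM, and 4822 in unc-13. The unc-31 summit, 12324 bp into the gene, lay inside the snRNA gene ZK897.3 and overlapped peaks ranked 5661 in replicate 1 and 2737 in replicate 2. The unc-10 summit, in a coding exon at 5708 bp, overlapped peaks ranked 6082 and 6095, so it was equally placed in both replicates. The unc-13 summit, in a coding exon at 10570 bp and 62 bp upstream of the 5′ end of an internal transcript, ranked 2467 in replicate 1 but 21025 in replicate 2. The best body sites of unc-64, unc-18, ric-4, snt-1, tom-1, aex-3 and rab-3, the gene of the vesicle Rab GTPase, ranked between 7512 and 23586 in the pool. Such ranks lie deep in a list that includes background.

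The endocytosis genes encode AP180 (unc-11), synaptojanin (unc-26) and endophilin (unc-57), which rebuild vesicles from the membrane. No pooled summit lay in any of their 3 promoter windows, and the single replicate summit there was 30 bp upstream of unc-11 in replicate 2, at rank 20451. Their best body sites ranked 13345 in unc-11, 9270 in unc-26 and 17989 in unc-57 in the pool. All 3 had a body summit in both replicates, but those of unc-11 were at different places, 2629 bp in replicate 1 and 6510 bp in replicate 2.

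Acetylcholine genes had no reproducible peak and no promoter summit in both replicates at any of the 10. The pooled promoter peak of cho-1, the choline transporter gene, was 680 bp upstream and ranked 20894, with no overlapping peak in either replicate. That of unc-29, a subunit gene of the levamisole-sensitive receptor, was 277 bp upstream, inside the ncRNA gene T08G11.8, and ranked 21821 in the pool and 9013 in replicate 1, with none in replicate 2. Single replicate summits at ace-2 (rank 24445 in replicate 1) and ric-3 (rank 20756 in replicate 2) completed the promoter peaks of this group. The acetylcholinesterase gene ace-2 had the best body site, in an intron at 921 bp, with ranks of 3415 in the pool, 3697 in replicate 1 and 5361 in replicate 2. The 5′ ends of unc-17, the vesicular acetylcholine transporter gene, and cha-1, the choline acetyltransferase gene, lie 2 bp apart in a shared locus, and neither promoter held a summit. One pooled body site ranked 8087 lies in both of them, and the best site of cha-1 (rank 7188) lies past the end of unc-17. Body summits in both replicates were found at cha-1, cho-1 and the acetylcholinesterase genes ace-1 and ace-2. They were not found in both at unc-17, at the receptor subunit genes unc-29, unc-38, unc-63 and acr-16 or at ric-3, which encodes a receptor chaperone.

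Among the channel genes, the best sites were in unc-2, the gene of the presynaptic calcium channel and the longest of the 37 at 52607 bp. Its intronic site at 31648 bp ranked 4037 in the pool, 5821 in replicate 1 and 4648 in replicate 2. The promoter of egl-19, the L-type calcium channel gene of muscle, had a pooled peak 198 bp upstream at rank 17678, which ranked 10102 in replicate 2 and was absent from replicate 1. Its summit was also in the promoter window of C48A7.16. The potassium channel gene slo-1 had no promoter summit, and its best body site ranked 11610 in the pool. In unc-36, which encodes an accessory calcium channel subunit, no pooled summit was listed, and each replicate had a single one (promoter, rank 14360 in replicate 1, and body, rank 24861 in replicate 2). The promoter summit of unc-36 was also in the window of snb-5. None of the 4 channel genes had a reproducible peak, where other genes weighted to their lengths had one in the promoter in 2.03% of cases and in the body in 10.2%, or 0.406 genes of 4.

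Across all roles, 7 of the 37 genes (18.9%) had a promoter summit in the relaxed lists of both replicates, against 18.5% of other genes and 19.6% of other genes weighted to the same lengths. By role, 4 of 11 release genes had one (snb-1, tom-1, aex-3 and unc-31), against 19.1% of other genes weighted to their lengths. So did 2 of 5 G-protein genes (egl-30 and ric-8), against 20%, and 1 of 4 GABA genes (unc-25), against 19.3%. The counts for acetylcholine, endocytosis and channel genes were 0 of 10, 0 of 3 and 0 of 4, against 21%, 21.3% and 16.3%. In the pooled relaxed list, 13 of 37 genes (35.1%) had a promoter summit, against 30.8% of other genes. At 18 of the 37 no list had one, but other genes were not counted in this way, so this number has no background beside it. When the 5′ end of any transcript was allowed, 13 of 37 genes (35.1%) had a promoter summit in both replicates, against 21.9% of other genes and 31% of those weighted to the same lengths. With the window of 1000 bp upstream, the share of synaptic genes with a weak promoter peak was therefore near that of other genes of their length.

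Gene bodies gave a higher share, which followed gene length. In both replicates 27 of the 37 genes (73%) had a body summit, against 36.5% of all other genes but 65.6% of other genes weighted to the same lengths. The peaks of the replicates did not have to overlap, in these genes or in the others, and at unc-18, aex-3 and unc-11 no pair did. In the pooled list the count was 30 of 37 (81.1%), against 48.9% of other genes and 73.4% of those weighted to the same lengths. By length, 1 of 4 synaptic genes of 3000 bp or shorter had a body summit in both replicates, against 24.5% of other genes, and 5 of 8 longer than 3000 and up to 6000 bp did, against 53.2%. For genes above 6000 and up to 12000 bp the count was 14 of 18, against 72.4%, and for genes over 12000 bp it was 7 of 7, against 85.8%. Within each class the synaptic genes were at or somewhat above the other genes, by about 1 gene or less. By role, such summits were found at 11 of 11 release genes, against 68.2% of other genes weighted to their lengths, and at 3 of 3 endocytosis genes, against 66%. They were found at 4 of 5 G-protein genes, against 71.3%, and at 3 of 4 channel genes, against 82.5%. GABA genes had them at 2 of 4, against 48.5%, and acetylcholine genes at 4 of 10, against 59.9%. In the pooled list, summits were found at 11 of 11 release genes, against 75.3% of other genes weighted to their lengths, and at 7 of 10 acetylcholine genes, against 69.8%. The difference at acetylcholine genes was thus not seen in the pooled list.

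**Figure D3:**
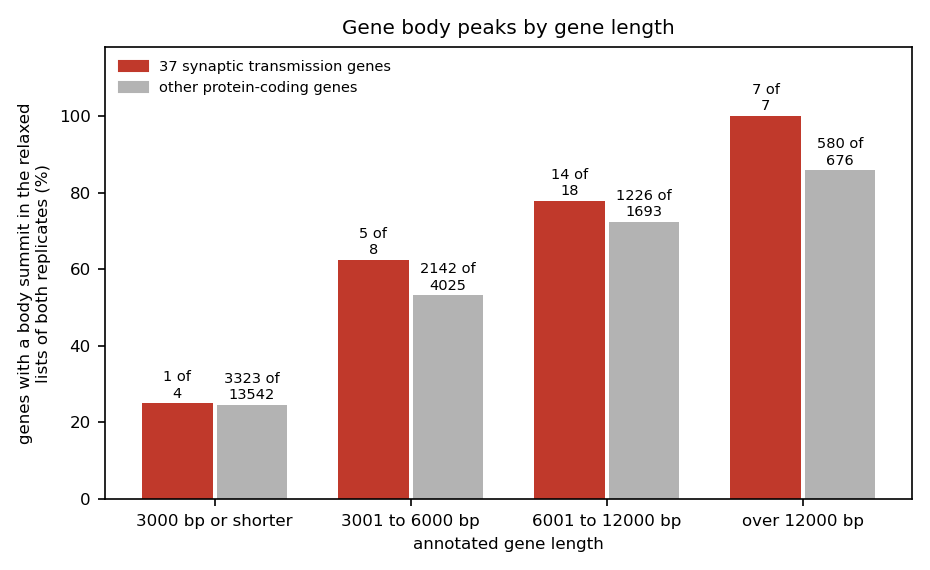
The share of genes with a body summit in the relaxed lists of both replicates (percent, vertical axis), for the 37 synaptic transmission genes (red) and the other protein-coding genes (grey) in 4 classes of annotated gene length, with the counts above the bars. Both shares climb with length, to 7 of 7 synaptic genes and 580 of 676 other genes above 12000 bp. The peaks of the replicates need not overlap.

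Counted per length of DNA, the synaptic gene bodies held 3.12 pooled summits per 10 kb, against 3.27 in other genes weighted to the same lengths. Over the replicates the mean was 2.98 ± 0.24 in synaptic genes and 3.24 ± 0.04 in those other genes (SD, n = 2 each). The G-protein genes stood at 5.77 in the pool, 5.16 in replicate 1 and 4.33 in replicate 2. GABA genes followed with 4.66, 5.08 and 4.23 in the same lists, and acetylcholine genes had 3.04, 2.68 and 2.86. Release genes had 2.93, 3.38 and 2.56. Channel genes had 1.91, 2.02 and 2.02, and endocytosis genes had 1.77, 1.33 and 2.21. The G-protein and GABA genes were thus above the other 4 groups in every list, though 17 of the 28 pooled G-protein summits belong to egl-8 and 8 of the 11 pooled GABA summits to unc-49, and neighbouring pooled peaks often overlap. Coding exons of the synaptic genes held 4.52 pooled summits per 10 kb and introns 2.59, against 4.26 and 2.63 in other genes. Without egl-30 the values were 4.35 and 2.62.

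The share of peaks matched between replicates was compared with that in other genes. Of 110 body peaks of replicate 1 in the synaptic genes, 65 (59.1%) overlapped a replicate 2 peak by at least 1 bp, against 57.1% in other genes. Among those in the strongest 10000 of replicate 1 the share was 81.1% (30 of 37 peaks), against 72.7%. In the opposite direction, 62 of 97 replicate 2 peaks (63.9%) overlapped one of replicate 1, against 59% in other genes. Among those in the strongest 10000 of replicate 2 the share was 76.5% (26 of 34 peaks), against 74.2%. At promoters, 9 of 14 replicate 1 peaks (64.3%) overlapped one of replicate 2, against 62.4% in other genes, and 7 of 13 replicate 2 peaks (53.8%) overlapped one of replicate 1, against 59.3%. Among promoter peaks in the strongest 10000 of replicate 1, 5 of 8 (62.5%) overlapped one of replicate 2, against 80.6%. For the strongest 10000 of replicate 2, 3 of 4 (75%) overlapped one of replicate 1, against 76.8%. Over all ranks, body shares were thus close to those of other genes, slightly above them in both directions. Promoter shares, over few peaks, were on either side. The other genes were not weighted to the same lengths in this comparison. Only egl-30 sites were among the top peaks of both replicates. At 2 genes, unc-38 and unc-46, no list had a summit in either window, against 26% of other genes and 11.4% of those weighted to the same lengths.

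**Figure D4:**
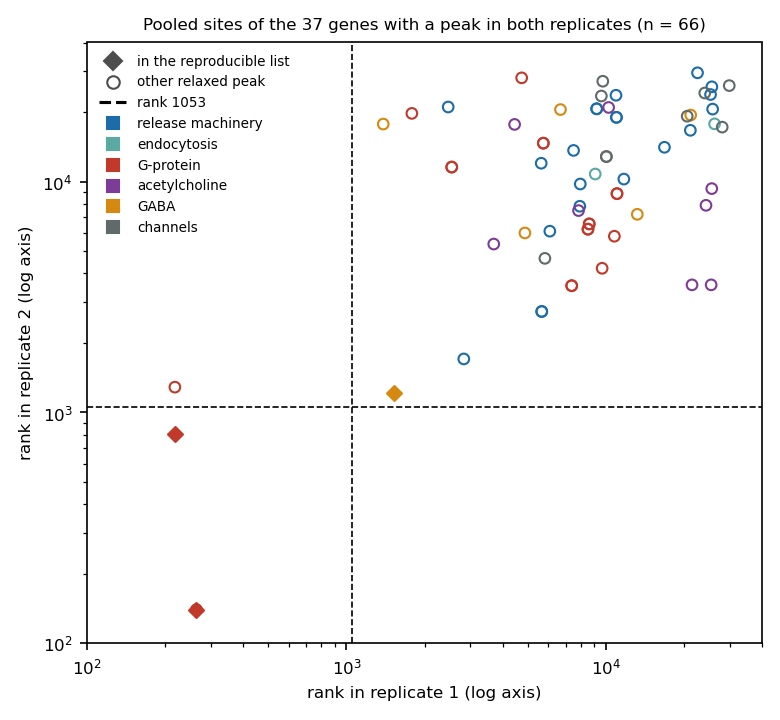
Ranks in replicate 1 (horizontal) and replicate 2 (vertical), both on log axes, of the 66 of 122 pooled sites of the 37 genes that overlap a peak in both replicates, coloured by role, with diamonds for the reproducible list and dashed lines at the rank of the last reproducible peak (a site in 2 genes is drawn for each). Adjoining pooled peaks can share a replicate peak. The 2 diamonds of egl-30 are below and left of both lines, that of unc-25 lies just outside both, and most of the rest are ranked beyond 2000 in each replicate.

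The wider pathway was read from a list of 79 further synaptic genes, of which 76 were found (rab-27, unc-74 and nca-1 were not found under those names). Reproducible promoter peaks lay at 4 of the 76 (5.26%), against 2.47% of other genes weighted to their lengths, and reproducible body peaks at 4 others (5.26%), against 5.51%. On the Gq and Gs side, eat-16, an RGS gene that dampens Gq signalling, had a promoter peak 338 bp upstream ranked 341 in the pool, 424 in replicate 1 and 241 in replicate 2, with its summit inside the ncRNA gene C16C2.7. The Gs alpha gene gsa-1 had one 63 bp upstream ranked 615, 527 and 957 in the same lists. An intron of the G beta gene gpb-1 held a peak ranked 643, 561 and 644. The gpb-1 summit lay inside the ncRNA gene F13D12.11. In the same list, no reproducible peak lay at egl-10 (RGS), gpb-2 (G beta), gpc-2, acy-1, kin-1, kin-2, pkc-1, pde-4, unc-73 or rho-1. The acetylcholine receptor regulator nra-2 had a promoter peak ranked 709, 1409 and 568 that is shared with the window of lin-53.

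Several of the wider pathway's sites lay at other annotated genes. At lev-9, which encodes a protein that clusters acetylcholine receptors, the promoter peak ranked 241 in the pool, 366 in replicate 1 and 194 in replicate 2, but its summit was inside a tRNA gene and also in the window of mom-1. The body peak of the innexin gene unc-7 (ranks 508, 368 and 1021) was inside a tRNA gene, that of unc-41, the stonin gene of endocytosis, lay 32 bp from the snoRNA gene C27H6.5 (ranks 50, 47 and 93), and that of the kinesin gene unc-104 (ranks 963, 1376 and 1679) was inside a pseudogene. None of the reproducible peaks at egl-30 and unc-25 had a tRNA or snoRNA gene within 1000 bp. The same was true of those at eat-16, gsa-1, gpb-1, nra-2 and unc-104. The gpb-1 site, at chrII:11746870-11747169, is printed along the minus strand of ce11, since it carries a repeat common in the reproducible list. Capitals mark GAGAGA or its reverse complement.
gpb-1: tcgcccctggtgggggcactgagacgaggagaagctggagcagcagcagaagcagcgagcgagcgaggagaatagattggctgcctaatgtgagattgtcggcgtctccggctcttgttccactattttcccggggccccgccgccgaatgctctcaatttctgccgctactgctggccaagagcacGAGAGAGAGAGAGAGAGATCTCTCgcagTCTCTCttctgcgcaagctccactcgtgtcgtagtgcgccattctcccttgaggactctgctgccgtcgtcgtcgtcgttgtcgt

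The gpb-1 sequence holds 9 GAGAGA matches, most of them overlapping, and has a GC content of 59.3%, against 50% in that of unc-25. A match of GTTCNANNC, the B box of tRNA genes, searched on both strands, was found at 6.61% of the sites of the 37 genes, against 13.1% of all relaxed pooled peaks and 27.4% of the reproducible peaks. The unc-25 and snb-1 sequences hold neither GAGAGA nor the B box.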

How the data were processed

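Peaks of tagged GEI-8 were measured by ChIP-seq in 2 biological replicates of 1 group. Chromatin was sonicated, per the labels, and coordinates are in build ce11. The aligner and the caller of the peaks were not given in the sources used here. Per the texts deposited beside the files, every list was called against the same control alignment. The deposited signal of each peak is the authors' own value and was used only to rank peaks within a list. The deposited −log10 q-values are also the authors' and served only to describe peaks. The reproducible list held 1053 peaks. No value column was left unmapped.

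Summits were placed on Ensembl release 115 gene models of WBcel235, which is ce11, with 1-based positions. Windows, summits and length classes are as given above, and the code that places summits was checked on simulated peaks with known positions. The annotated 5′ end of a trans-spliced gene can lie downstream of its transcription start. Python 3.11.15, numpy 2.4.6 and matplotlib 3.10.9 were used.

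The genes, gene lists and motifs were chosen with earlier results of these data known, so no test was run, and shares are given beside those of other protein-coding genes. Full values went to genes with a reproducible peak or a summit in the strongest 1053 of a replicate, and promoter ranks to up to 3 others per role. Body sites other than these were named after their values were seen. Alternatives changed the number of peaks, the replicates, the windows, the 5′ end, the overlap rule, nearby RNA genes and the length classes.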

Additional observations from a re-analysis of the deposited data

How the results depend on the processing

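With the stronger 50% of the reproducible peaks, the count of 2 synaptic genes with a promoter peak fell to 1, egl-30 (2.7%, against 1.07% of other genes). With the top peaks of either replicate alone it was 1 (1 to 1), against 1.85% of other genes in replicate 1 and 2.17% in replicate 2. It was also 1 with only peaks strong in both replicates (2.7% against 1.28%), a setting added after the data were seen. It was 3 with 2 times as many pooled peaks (snb-1 added, 8.11% against 3.57%) and with a window from 2000 bp upstream (unc-18 added, 8.11% against 3.09%). The body count of 1 became 2 with 2 times as many pooled peaks (snb-1 added, 5.41% against 4.28%). It was also 2 with overlap of the whole peak (unc-25 added, 5.41% against 3.17%). In either replicate alone it was 1 (1 to 1), or 2.7%, against 2.23% of other genes in replicate 1 and 1.97% in replicate 2. The count of 1 body among the top peaks of both replicates was 0 with the stronger 50% of them, against 0.612% of other genes. It was 27 with the whole relaxed lists (73%), against 36.5% of other genes and 65.6% of those weighted to the same lengths. The count of 7 promoters in both relaxed lists depended most on the window and the list. It was 13 in the pooled list (35.1%, against 30.8% of other genes), 11 to 13 in a single replicate (29.7% against 30% in replicate 1, 35.1% against 32.1% in replicate 2) and 4 with a window of 500 bp upstream to 100 bp downstream (10.8% against 9.43%). It was 17 with 2000 bp upstream (45.9% against 31.5%), 13 with any transcript 5′ end (35.1% against 21.9%) and 3 within the strongest 10000 (8.11% against 6.39%). The shares of other genes in these promoter settings are not weighted to gene length. For any transcript 5′ end, the weighted share given above was closer to that of the synaptic genes. The cause of the differences between settings was not tested beyond the width of window or number of peaks each setting admits. The density of body summits was 2.81 to 3.15 per 10 kb with 1 replicate, and 3.21 to 3.26 in other genes of the same lengths. Of 41 alternative values, 24 stayed within the limit set for no change. No paired analysis was possible because there was 1 group. The unknown depth, the shared control and the whole-animal sample limit what weak or absent peaks can show, and absence from a list does not show absence of binding.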
